A study of Homo sapiens with 8 samples.

Results

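Replication-dependent histone genes encode the linker histone H1 and the core histones H2A, H2B, H3 and H4 that package newly made DNA. Here they were taken as every gene whose symbol is H1-1 to H1-6 or has the form H2AC, H2BC, H3C or H4C followed by a number. The rule found 65 of the 57500 genes in the table of counts, namely 6 H1, 15 H2A, 18 H2B, 11 H3 and 15 H4 genes. H2AC18, H2AC19, H3C2 and H3C3 were not analysed here. RNA sequencing compared HEK293T cells, a human line made from embryonic kidney cells and expressing the large T antigen of SV40, after 48 h with 100 µM DZNep (DZNep, n = 4) or with vehicle (Control, n = 4). The cells carried no other genetic change named in the labels, and DZNep (3-deazaneplanocin A) is an adenosine analogue that blocks S-adenosylhomocysteine hydrolase and so lowers methylation by many methyltransferases. The labels give the culture medium as DMEM while the methods name RPMI. All libraries came from this 1 cell line.

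In cycling cells these genes are switched on as DNA replication begins and their mRNA is removed when it ends. Most of them lack introns and lie close together in clusters, where NPAT and, for H4 genes, HINFP gather the transcription machinery at nuclear histone locus bodies. Their mRNA normally ends just after a short stem-loop that is bound by SLBP, in place of the poly(A) tail found on other mRNAs, and some of the genes can also give longer polyadenylated transcripts.

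The stem-loop is shown first because it is the feature that sets these mRNAs apart from others. Reading the genome (GRCh38) from each stop codon, a stem-loop of 16 bases, with 6 paired bases on each side of a loop of 4, was found in 65 of 65 genes, 22 to 62 bases after the stop codon (median 35). There were 10 forms, of which the 4 most frequent are printed 5′ to 3′, with the paired bases in capitals and the loop in lower case.
36 genes, none of them H4: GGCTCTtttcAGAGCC
10 genes, all H4: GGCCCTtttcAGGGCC
9 genes, none of them H4: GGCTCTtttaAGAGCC
4 genes, all H4: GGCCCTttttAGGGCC
The other forms occurred in 1 gene each. No form was shared between H4 genes and genes of the other types.

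Library totals ranged from 25043058 to 41247898 counts in Control and from 36141132 to 44902779 in DZNep. Mitochondrial genes took 3.02 to 13.7% of the counts in Control and 4.25 to 10.1% in DZNep, and replicates 1 and 4 had the highest mitochondrial share of each group. The kidney-line genes PAX2, LHX1, EYA1, NEFL, NEFM and INA were all tested. Their summed normalized count (reads divided by the size factor of the library, which evens out depth) was 8320 to 13769 in Control and 8270 to 9162 in DZNep, with LHX1 lower. Markers of immune cells summed to 169 to 322 in Control and 208 to 610 in DZNep (0 of 4 tested changed), those of fibroblasts to 4186 to 8542 and 3648 to 9053 (1 of 5 tested changed, LUM, higher), and those of red cells to 7.14 to 32.2 and 1.61 to 12.7 (none tested). DZNep replicate 2 stood apart in 2 of these markers, with 450 normalized counts of LYZ, a lysozyme of white blood cells, beside 21.6 to 24.7 in the other DZNep libraries, and 15.3 of COL1A2, a collagen chain, beside 1072 to 1647. CD3E, of T cells, was not tested and had 0 in every Control library and 8.16 to 40.5 in DZNep. Whether the RNA was selected by its poly(A) tail and whether the libraries kept the strand are not given in the sources used here.

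Histone mRNA took a larger share of every DZNep library than of any Control library. In Control replicates 1 to 4 the 65 genes together held 0.0126, 0.010, 0.00898 and 0.0141% of the counts. In DZNep they held 0.0556, 0.0502, 0.0472 and 0.0640%, which is 4.75 times the mean Control share, and 4.69 times when mitochondrial counts were left out. Replicates 1 and 4, with the most mitochondrial counts, also had the largest histone share of each group. The part of the mitochondrial share in these levels was not tested. In bulk RNA, more cells that express these genes and more of their mRNA per cell cannot be told apart.

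By edgeR's quasi-likelihood test over 19171 genes, 29 of the 40 histone genes tested were higher after DZNep (adjusted p under 0.05 and log2 fold change over 1), where 10.6% of all genes tested were higher. Of the 40, 0 were lower, where 13.5% of all genes tested were lower, and none reached this direction without adjustment (0 at an unadjusted p under 0.05) or by DESeq2 (0). Their log2 fold changes ran from -0.14 to 3.78 with a median of 1.93, beside a median of -0.03 over all genes tested, and 38 of 40 were above 0. The 4 DZNep values lay above all 4 Control values for 31 of 40 genes, where this held for 19.5% of all genes tested. For 0 of 40 they lay below, where this held for 19.4%. In 35 of 40 genes the DZNep library exceeded the Control library of the same number in each of the 4 pairs. Without DZNep replicate 2, 26 of 40 were higher. With the replicate number as a block, 30 histone genes were higher, where 11.7% of all genes were. Among the 26 histone genes with at least 10 reads in every library, 18 were higher. The share of all genes that were higher under this filter is not given here, and the 10.6% is of all 19171 genes. H2AC20 passed the filter of at least 10 reads and lost its call there. In 29 tested genes, at least 90% of windows of 150 bases were unique within the cluster regions and no exon overlapped that of another gene. Of these 29, 21 were higher. The rest of the genome was not searched for copies. Of the genes that rose, H2AC6, H2BC4, H2BC18, H2BC26 and H4C8 overlap exons of other annotated genes, and 47.1% of the windows of 150 bases in H2AC13 are unique within the clusters.

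**Figure D1:**
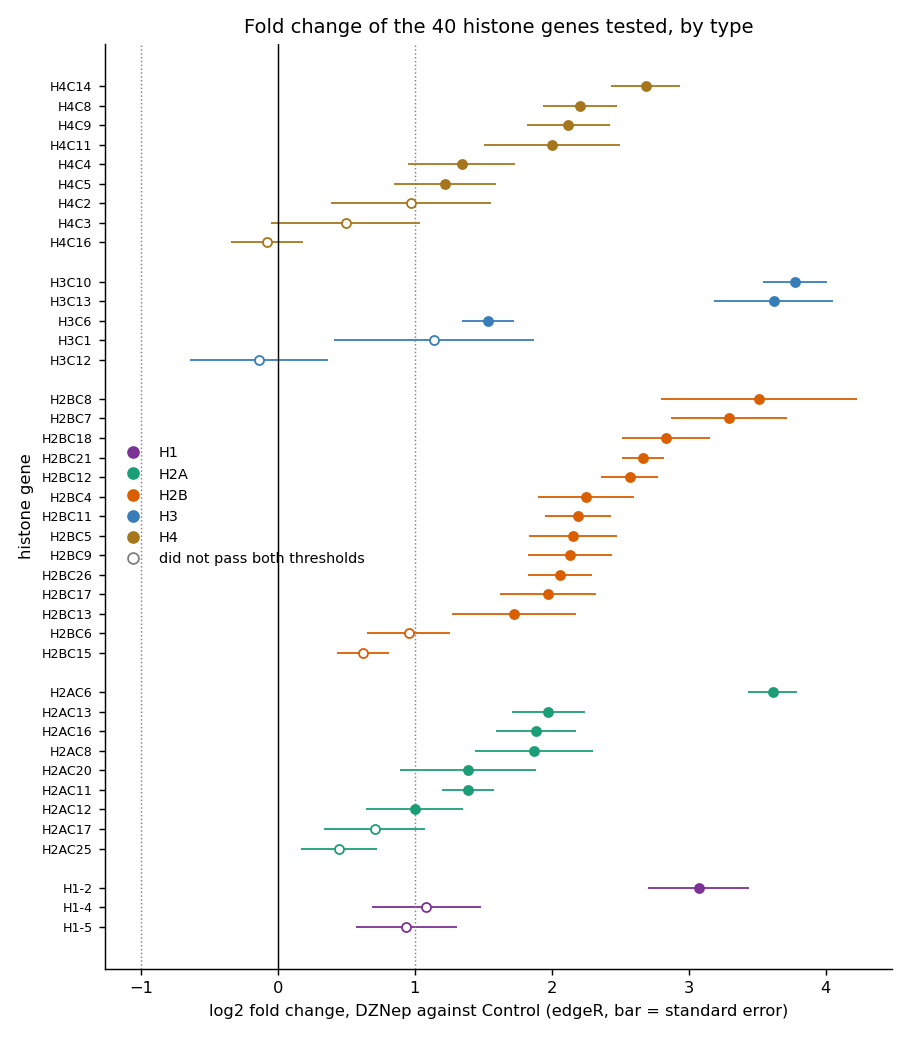
Log2 fold change (x axis, DZNep against Control, edgeR) of the 40 histone genes tested (y axis), coloured by histone type, with standard errors as bars and open points for the 11 genes that did not pass both thresholds. Points run from -0.14 for H3C12 to 3.78 for H3C10, and 38 of the 40 lie right of 0.

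All 5 histone types had a higher sum in DZNep, by different ratios. The summed normalized count of the H1 genes was 470 ± 222 (SD, n = 4) in Control and 3576 ± 1227 in DZNep, 7.60 times as high. The H2A genes went from 1131 ± 368 to 3104 ± 419 (2.74 times), and the H4 genes from 974 ± 450 to 2882 ± 1040 (2.96 times). The H2B genes went from 1694 ± 330 to 9232 ± 1432 (5.45 times), and the H3 genes from 211 ± 34.9 to 1528 ± 213 (7.26 times). In each type the lowest DZNep sum lay above the highest Control sum. These sums were led by few genes. H2BC12 alone made up 25.3% of all histone counts in Control and 33.8% in DZNep, and without it the summed level of the other 64 genes was still 4.02 times as high in DZNep.

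**Figure D2:**
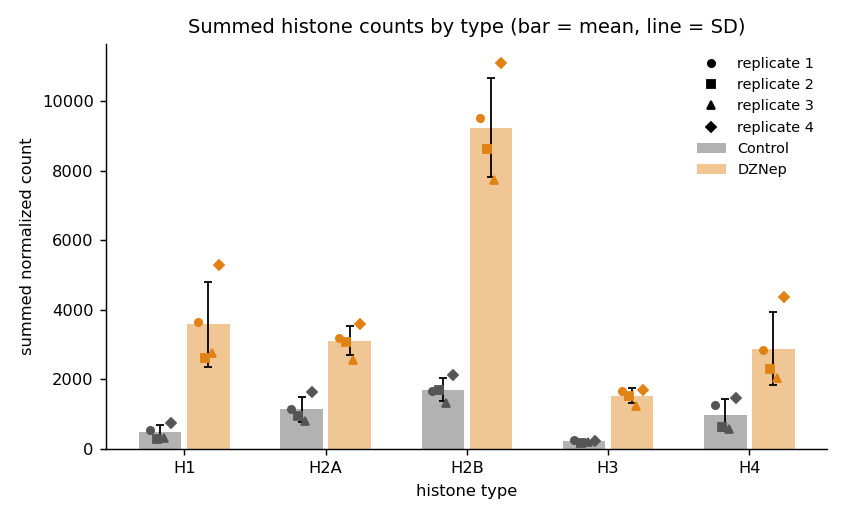
Summed normalized count (y axis, starting at 0) of the H1, H2A, H2B, H3 and H4 genes (x axis) in Control and DZNep, with bars for the mean, lines for the SD and points for the 4 libraries of each group. The tallest pair is H2B, at 1694 in Control and 9232 in DZNep, and no Control point reaches a DZNep point of the same type.

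Linker histone H1 binds the DNA between nucleosomes. All positions are on GRCh38 and span the annotated gene, and values in the libraries are given in the order of replicates 1 to 4. Of the 6 H1 genes, 3 were tested and 1 was higher. H1-2 (ENSG00000187837, chr6:26055740-26056470, minus strand), the most abundant, had normalized counts of 462, 229, 262 and 636 in the Control libraries and 3474, 2455, 2644 and 5071 in the DZNep libraries. Each DZNep library stood several times above every Control library, and replicates 1 and 4 were the highest of both groups. For H1-2 the log2 fold change was 3.07 ± 0.37 (SE; adjusted p = 0.000157). H1-4 (ENSG00000168298, chr6:26156329-26157115, plus strand) had normalized counts of 58.6, 35.7, 30.5 and 101 in the Control libraries and 103, 126, 81.2 and 177 in the DZNep libraries. The groups overlapped, since Control replicate 4 lay above DZNep replicate 3, although each DZNep library exceeded the Control library of the same number. Its log2 fold change of 1.08 ± 0.40 (SE; adjusted p = 0.0510) missed the threshold, and with the replicate block it was 1.17 with an adjusted p of 0.00058. Without Control replicate 4 it was 1.54 (0.00597), and without DZNep replicate 3 it was 1.24 (0.0481). H1-5 had a log2 fold change of 0.94 ± 0.37 (SE; adjusted p = 0.0649) and its groups did not overlap. Among the untested genes, H1-3 had 2 to 6 reads in Control and 8 to 23 in DZNep, H1-6, a testis form, had 0 in each Control library and 2 to 5 in DZNep, and H1-1 had 0 to 2 in both groups.

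H2A pairs with H2B in the nucleosome core. Of the 15 H2A genes, 9 were tested and 7 were higher, with a median log2 fold change of 1.39. H2AC6 (ENSG00000180573, chr6:26124145-26139116, plus strand) had normalized counts of 105, 123, 94.1 and 92.4 in the Control libraries and 1344, 1521, 1092 and 1214 in the DZNep libraries. The groups were far apart and the replicates close together. For H2AC6 the log2 fold change was 3.61 ± 0.18 (SE; adjusted p = 2.27e-06), the smallest adjusted p of all the histone genes. H2AC25 (ENSG00000181218, chr1:228434777-228457873, minus strand) was the most abundant H2A gene in Control, with 718, 595, 533 and 1175 in the Control libraries and 1055, 867, 813 and 1475 in the DZNep libraries. The groups overlapped through Control replicate 4, and each DZNep library was above the Control library of the same number. For H2AC25 the log2 fold change was 0.45 ± 0.28 (SE; adjusted p = 0.223), which did not pass. Among all histone counts, H2AC6 went from 2.31 to 6.36%, while H2AC25 went from 16.9 to 5.18%. Of the others, H2AC13 (1.98), H2AC16 (1.88), H2AC8 (1.87) and H2AC11 (1.39) rose by these log2 fold changes. H2AC16 held 61.9 to 63.9 normalized counts in DZNep, the narrowest spread of the H2A genes, against 11.6 to 23.6 in Control. H2AC12, at 1.00 with an adjusted p of 0.0443, lay just past both thresholds, and its call was lost without any 1 library other than Control replicate 4 (adjusted p 0.0557 to 0.121) and by DESeq2 (0.0666). H2AC17 had 0.71 (adjusted p = 0.154), or 1.03 (0.0439) without Control replicate 4, and its exons overlap those of H3C12.

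Of the 18 H2B genes, 14 were tested and 12 were higher, with a median log2 fold change of 2.17. The DZNep values were above all Control values in 14 of these 14. H2BC12 (ENSG00000197903, chr6:27146361-27146855, minus strand) was the most abundant histone gene of all, with normalized counts of 1090, 1178, 837 and 1429 in the Control libraries and 7189, 6165, 5595 and 8494 in the DZNep libraries. Even the lowest DZNep library was several times the highest Control library. For H2BC12 the log2 fold change was 2.57 ± 0.21 (SE; adjusted p = 1.94e-05). Per kilobase of annotated exon its mean level was 2290 in Control and 13860 in DZNep, beside 544 and 4666 for H1-2, the next in DZNep. H2BC5 (ENSG00000158373, chr6:26158122-26171349, plus strand) had 185, 87.5, 94.1 and 220 in the Control libraries and 657, 549, 553 and 890 in the DZNep libraries. Replicate 4 was highest in both groups and the groups stood apart. For H2BC5 the log2 fold change was 2.15 ± 0.32 (SE; adjusted p = 0.000531). The genes H2BC4 (2.25), H2BC11 (2.19), H2BC9 (2.14), H2BC17 (1.97) and H2BC13 (1.73) rose by similar log2 amounts. H2BC6 (0.95, adjusted p = 0.0296) and H2BC15 (0.62, adjusted p = 0.0250) passed the adjusted p but not the fold threshold. H2BC6 passed both without Control replicate 4 (1.08) or DZNep replicate 1 (1.07).

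Among the largest fitted changes were 2 H2B genes that were almost silent in Control. H2BC8 (ENSG00000273802, chr6:26216200-26216688, minus strand) had normalized counts of 0, 0.893, 4.48 and 0 in the Control libraries and 20.9, 17.7, 11.2 and 27.0 in the DZNep libraries. Control libraries 1 and 4 had no read at all, and every DZNep library was above every Control library. With 6 reads in all of Control against 82 in DZNep, the ratio corrected for library size was 11.9 (exact 95% interval 5.23 to 33.3, counting error only). The fitted log2 fold change of 3.51 ± 0.71 (SE; adjusted p = 0.00313) has the largest error of the H2B genes, and it was 3.13 to 5.27 with 1 library left out, the highest without Control replicate 3. H2BC7 (ENSG00000277224, chr6:26199516-26199988, plus strand) had 1.54, 1.79, 1.79 and 2.15 in the Control libraries and 11.8, 22.6, 24.2 and 19.1 in the DZNep libraries. Its 7 Control reads against 86 gave a ratio of 10.7 (4.97 to 27.3).

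H3 forms a tetramer with H4 at the centre of the nucleosome and carries many of the methylated lysines. Of the 11 H3 genes, 5 were tested and 3 were higher. H3C10 (ENSG00000278828, chr6:27810051-27811300, plus strand) showed the largest log2 fold change of all the histone genes tested, with normalized counts of 94.04, 75.9, 57.3 and 104 in the Control libraries and 1244, 1171, 866 and 1336 in the DZNep libraries. The lowest DZNep library was several times the highest Control library. For H3C10 the log2 fold change was 3.78 ± 0.23 (SE; adjusted p = 5.16e-06), and the gene's share of histone counts went from 1.85 to 5.68%. H3C6 (ENSG00000274750, chr6:26224199-26227473, plus strand) had 95.6, 81.2, 108 and 74.1 in the Control libraries and 300, 239, 279 and 243 in the DZNep libraries. All 4 DZNep libraries were well above Control, with little spread. For H3C6 the log2 fold change was 1.54 ± 0.19 (SE; adjusted p = 0.00019).

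H3C12 (ENSG00000197153, chr6:27890315-27893106, minus strand) did not follow them. It had 32.4, 9.82, 11.6 and 39.8 in the Control libraries and 27.2, 12.9, 16.4 and 29.2 in the DZNep libraries. The groups overlapped fully, and replicates 1 and 4 were the highest in both. For H3C12 the log2 fold change was -0.14 ± 0.50 (SE; adjusted p = 0.850). Its sign turned without Control replicate 1 (0.04), Control replicate 4 (0.28) or DZNep replicate 2 (0.05). H3C1 had a log2 fold change of 1.14 ± 0.73 (SE; adjusted p = 0.239) on 0 to 12.3 normalized counts in Control and 6.35 to 14.6 in DZNep, and its log2 fold change was 0.67 without Control replicate 2 and 1.92 without Control replicate 1.

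Of the 15 H4 genes, 9 were tested and 6 were higher, with a median log2 fold change of 1.34. H4C9 (ENSG00000276180, chr6:27139282-27139678, plus strand) had normalized counts of 504, 337, 245 and 518 in the Control libraries and 1874, 1218, 1403 and 2613 in the DZNep libraries. The groups did not overlap. For H4C9 the log2 fold change was 2.12 ± 0.30 (SE; adjusted p = 0.000416). H4C3 (ENSG00000197061, chr6:26103933-26104337, plus strand), about as abundant as H4C9 in Control, had 577, 172, 201 and 689 in the Control libraries and 445, 496, 237 and 1179 in the DZNep libraries. Replicate 4 was the highest of each group, the groups overlapped, and DZNep replicate 1 was below Control replicate 1. For H4C3 the log2 fold change was 0.50 ± 0.54 (SE; adjusted p = 0.501), and it was -0.08 without DZNep replicate 4. The share of H4C3 among histone counts went from 9.14 to 2.90%, while that of H4C9 was 8.95 and 8.74%. H4C8 (2.21), H4C11 (2.00), H4C4 (1.34) and H4C5 (1.22) rose by these log2 fold changes, and H4C2 had 0.97 (adjusted p = 0.213), or 1.79 (0.0247) without Control replicate 4. The call of H4C4 was lost without Control replicate 1 or 3 or DZNep replicate 2 (adjusted p 0.0561 to 0.0629), and that of H4C5 without Control replicate 3 or DZNep replicate 1 or 2 (0.0509 to 0.0753). The sequence of H4C11 is largely repeated in the cluster, with 11.3% of its windows of 150 bases unique. The study's methods counted unique reads alone, so reads from repeated sequence may be missing from its count.

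**Figure D3:**
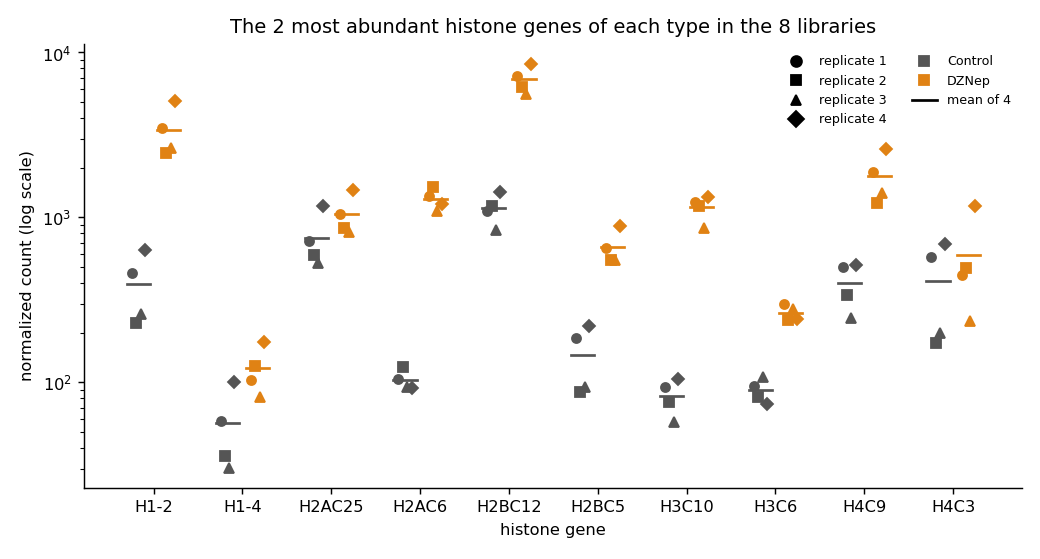
Normalized count (y axis, log scale) of the 2 most abundant histone genes of each type (x axis) in the 4 Control and 4 DZNep libraries, with a symbol for each replicate number and a line at the mean. H1-2, H2AC6, H2BC12, H2BC5, H3C10, H3C6 and H4C9 separate fully, while H1-4, H2AC25 and H4C3 overlap, and the diamonds of replicate 4 are often the highest.

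The other 25 genes had too few reads to be tested, with at most 23 reads in any library. No read was found in any library for H2AC1, H3C4, H4C7 and H2AC15. The exons of H3C4 overlap those of ENSG00000282988, so reads from H3C4 could have been counted there or left out. Among the 21 with a read in some library, the DZNep counts were above all Control counts for 5, where this held for 6.14% of all untested genes with a read. For 0 of the 21 they were below, where this held for 2.58%. Besides H1-3 and H1-6 these were H3C11 (0 in Control, 1 to 3 in DZNep), H3C14 (0 to 2 against 4 to 10) and H3C15 (0 to 1 against 2 to 11). The genes H4C1 (2 to 7 against 3 to 16), H2AC21 (1 to 6 against 1 to 18), H3C7 (2 to 5 against 4 to 12) and H2AC4 (1 to 4 against 1 to 9) overlapped between groups. So did H2AC7 (0 to 4 against 0 to 6), H4C15 (0 to 3 against 0 to 5), H2BC3 (0 to 4 against 1 to 3), H2AC14 (0 to 3 in both), H4C12 (0 to 2 against 0 to 3), H2BC14 (0 against 0 to 3) and H4C13 (0 against 0 to 4). H2BC1, H4C6, H3C8 and H2BC10 had at most 2 reads in any library. In the library with the fewest counts, 3 reads correspond to 1.2e-05% of the library.

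The genes lie on 3 chromosomes. Chromosome 6 holds 53 of them, of which 32 were tested and 23 were higher. Their summed normalized count was 3429 ± 989 in Control and 17962 ± 3815 in DZNep, a ratio of 5.24. Runs of genes with gaps of at most 300000 bases split this cluster in 3. The first block (chr6:25723397-26285638, from H2AC1 to H4C8) holds 32 genes, of which 17 were tested and 12 were higher, with a median log2 fold change of 1.87. The second (chr6:27125897-27147562, from H2BC11 to H2AC12) holds 5 genes. All 5 were tested and higher, with a median of 2.12, and its sum went from 1678 ± 368 to 9140 ± 1870, mostly H2BC12. The third (chr6:27807479-27893891, from H2BC13 to H2BC17) holds 16 genes, of which 10 were tested and 6 were higher, with a median of 1.80. Both the highest (H3C10) and the lowest (H3C12) log2 fold change of all the genes lay in the block from H2BC13 to H2BC17.

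On chromosome 1, 11 genes lie in a pair of groups. In the first (chr1:149782689-149887965), 5 of 9 genes were tested and all 5 were higher, with a median log2 fold change of 2.69. H2BC18 (ENSG00000203814, chr1:149782689-149812373, minus strand) had 20.04, 22.3, 27.8 and 27.9 in the Control libraries and 150, 297, 124 and 150 in the DZNep libraries. DZNep replicate 2 stood well above the other DZNep libraries, which in turn stood above all of Control. For H2BC18 the log2 fold change was 2.84 ± 0.32 (SE; adjusted p = 0.000117), and the exons overlap those of FCGR1A. H3C13 (ENSG00000183598, chr1:149813225-149813693, minus strand) had 10.8, 3.57, 3.58 and 2.15 in the Control libraries and 62.6, 64.4, 48.4 and 63.0 in the DZNep libraries. Control rested on 2 to 7 reads a library, and the groups did not overlap. For H3C13 the log2 fold change was 3.62 ± 0.43 (SE; adjusted p = 0.000152). H4C14 (ENSG00000270882, chr1:149832657-149839767, plus strand) had 12.3, 12.5, 10.7 and 10.7 in the Control libraries and 82.5, 87.8, 66.5 and 68.6 in the DZNep libraries. Both groups were tight and far apart. For H4C14 the log2 fold change was 2.69 ± 0.25 (SE; adjusted p = 4.52e-05), but its exons are repeated in H4C15 and 0% of its windows are unique.

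The other genes of that group form a back-to-back pair. H2BC21 (ENSG00000184678, chr1:149884459-149886682, minus strand) had 80.2, 73.2, 87.8 and 76.3 in the Control libraries and 514, 561, 481 and 498 in the DZNep libraries. Its replicates were close together in both groups. For H2BC21 the log2 fold change was 2.67 ± 0.15 (SE; adjusted p = 4.59e-06). H2AC20 (ENSG00000184260, chr1:149886918-149887411, plus strand), on the other side of a gap of 236 bases, had 120, 43.7, 43.0 and 178 in the Control libraries and 248, 167, 171 and 438 in the DZNep libraries. Control replicate 4 was above DZNep replicates 2 and 3, so the groups overlapped. Each DZNep library exceeded the Control library of the same number. For H2AC20 the log2 fold change was 1.39 ± 0.50 (SE; adjusted p = 0.0464). The call was lost (adjusted p 0.0529 to 0.12) without Control replicate 1, 2 or 3 or without DZNep replicate 1, 3 or 4.

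The second group on chromosome 1 (chr1:228434777-228463104) holds H2AC25, described above, and H2BC26 (ENSG00000196890, chr1:228458103-228463104, plus strand). H2BC26 had 43.2, 42.0, 29.6 and 49.4 in the Control libraries and 204, 196, 143 and 153 in the DZNep libraries. The groups did not overlap, and the log2 fold change was 2.06 ± 0.24 (SE; adjusted p = 0.000122). H2AC25 is far the more abundant of the pair, so the group's sum was 796 ± 297 in Control and 1226 ± 296 in DZNep.

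Chromosome 12 holds H4C16 alone (ENSG00000197837, chr12:14767999-14771131, minus strand). It had 40.1, 27.7, 28.7 and 31.2 in the Control libraries and 27.2, 29.0, 30.2 and 36.0 in the DZNep libraries. The groups overlapped throughout, and 1 of 4 pairs went down. For H4C16 the log2 fold change was -0.08 ± 0.26 (SE; adjusted p = 0.831), and 0.03 without Control replicate 1. H4C16 stands as a single gene, so no cluster of chromosome 12 could be compared with the others.

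**Figure D4:**
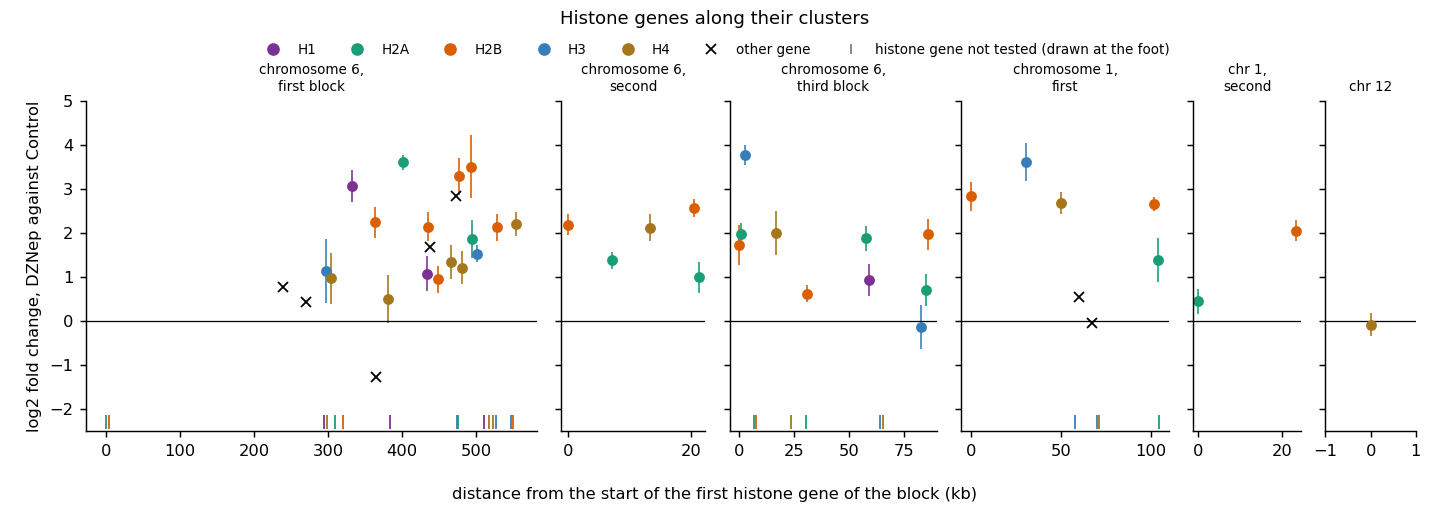
Log2 fold change (y axis, bar for the standard error) of the histone genes tested against the distance in kb from the first histone gene of each block (x axis), in 6 panels for the blocks of chromosomes 6, 1 and 12, with ticks at the foot for untested histone genes and crosses for other genes in the blocks. Histone genes above 1 occur in every block of chromosome 6 and both groups of chromosome 1, while the only point of chromosome 12 lies at -0.08.

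Other genes lie between the histone genes. Of 7 that were tested, 2 were higher and 1 lower, where 10.6% and 13.5% of all genes tested were. The 2 that rose were the unnamed ENSG00000282988 (2.86) and ENSG00000283064 (1.68), which overlap histone genes, so their reads cannot be told apart without strand. HFE, a regulator of iron uptake that shares exons with H2BC4, fell by 1.26 on the log2 scale. TRIM38, a ubiquitin ligase, had 0.77 and did not reach the fold threshold. The histone pseudogenes H2BC20P and H2BC19P had -0.04 and 0.55, and LINC02980 had 0.44.

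Many H2A and H2B genes start back to back and share the DNA between them. There were 13 divergent pairs of histone genes with starts 170 to 319 bases apart, 12 of them an H2A with an H2B gene. Both genes were tested in 9 pairs and both were higher in 6. Among the 8 H2A and H2B pairs with both genes tested, the H2B gene had the larger log2 fold change in 6, with a median difference (H2B minus H2A) of 1.27. In H2AC12 and H2BC12 the difference was 1.57 and had the same sign in all 4 replicate pairs. In H2AC25 and H2BC26 it was 1.61, again in all 4. In H2AC6 and H2BC4 it was -1.36, and the H2A gene rose more in all 4. H2AC13 and H2BC13 differed by -0.25, with the sign split between replicate pairs. These differences were not tested further. The paired genes also differed in level. Per kilobase of exon, H2BC12 reached 13860 in DZNep beside 43.8 for H2AC12.

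**Figure D5:**
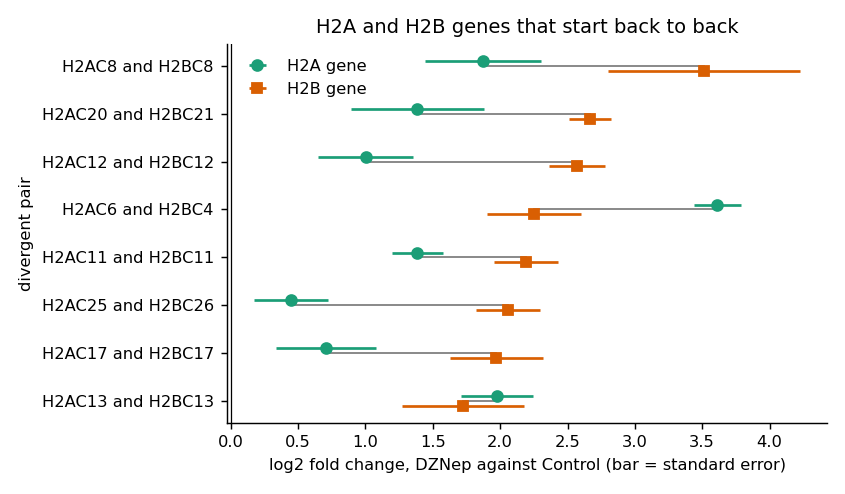
Log2 fold change (x axis, bar for the standard error) of the H2A gene (circles) and the H2B gene (squares) in each of the 8 divergent pairs with both genes tested (y axis). The square lies right of the circle in 6 pairs, and left of it in H2AC6 with H2BC4 and H2AC13 with H2BC13.

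What the genes share upstream is shown for 5 of them: the leading H2B, H1, H3 and H2A genes, which rose, and H4C16 on chromosome 12, which did not pass. Each line is the 150 bases before the transcription start, 5′ to 3′ along the gene (RefSeq, GRCh38.p14, whose start can differ from that of GENCODE). Capitals mark the motifs TATAAA (the TATA box), CCAAT (bound by NF-Y), ATTTGCAT (the octamer bound by POU2F1) and AAACACA (an H1 promoter element), on either strand. The windows are chr6:27146859-27147008, chr6:26056471-26056620, chr6:27809901-27810050, chr6:26124022-26124171 and chr12:14771132-14771281, in the order of the lines.
H2BC12: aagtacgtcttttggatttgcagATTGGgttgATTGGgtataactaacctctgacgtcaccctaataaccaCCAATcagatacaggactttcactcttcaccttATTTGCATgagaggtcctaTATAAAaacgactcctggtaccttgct
H1-2: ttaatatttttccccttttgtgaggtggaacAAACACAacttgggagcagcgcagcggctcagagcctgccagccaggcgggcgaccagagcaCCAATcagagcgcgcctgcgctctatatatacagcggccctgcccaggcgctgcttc
H3C10: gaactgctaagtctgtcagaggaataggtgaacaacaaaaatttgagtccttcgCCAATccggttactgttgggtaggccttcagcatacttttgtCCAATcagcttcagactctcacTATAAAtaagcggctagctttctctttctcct
H2AC6: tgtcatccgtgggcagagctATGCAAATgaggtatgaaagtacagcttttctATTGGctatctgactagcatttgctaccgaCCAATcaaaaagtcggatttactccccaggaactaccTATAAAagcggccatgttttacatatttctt
H4C16: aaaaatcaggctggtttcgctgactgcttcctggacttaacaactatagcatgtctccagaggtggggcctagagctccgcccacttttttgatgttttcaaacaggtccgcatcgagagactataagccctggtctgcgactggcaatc
H2BC12 carries a TATA box, an octamer and several CCAAT motifs, H1-2 has a single CCAAT motif and the H1 element, and H4C16 has no capital letter in this window. The same window held none of these motifs in H4C5, H4C8 and H4C14, which rose. H4C16 does have TATAAA in the wider window counted next.

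From 250 bases before to 50 bases after the start, CCAAT was present in 49 of 59 histone genes (83.1%), beside 35.7% of all 27305 promoters. The RefSeq window of H3C4 was left out, since it is the same as that of H2AC7 and lies 2007 bases from the annotated start of H3C4. CCAAT was found in all H1, H2A, H2B and H3 windows and in 3 of 13 H4 genes. TATAAA was present in 39 (66.1%, beside 11.95% of all promoters). ATTTGCAT was present in 25 (42.4%, beside 1.80%), of which 14 were H2B and 11 H2A genes. The windows of back-to-back genes overlap, so 1 site can be counted for both genes, as is the octamer of H2AC6 and H2BC4. These counts, and the split of tested genes by motif below, are therefore not counts of separate sites. AAACACA was in 9 (15.3%, beside 5.76%), including 6 of 6 H1 genes. The E2F-type letters TTTGGCGC and TTTCCCGC were in 0 and 1 of 59 (0 and 1.7%), beside 0.66 and 1.66% of all promoters. Genes that rose were found with and without each frequent motif. With the octamer, 14 of 16 tested genes were higher, with a median log2 fold change of 2.16, and without it 14 of 21, with a median of 1.73. With TATAAA 18 of 24 were higher, and without it 10 of 13.

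The genes also differ in how far their annotated exons run. For 48 genes the exons end within 18 bases of the stem-loop, and for 17 at least 1 transcript runs 380 to 4551 bases past it. Of the 15 tested genes with longer exons, 11 were higher (median log2 fold change 2.19), and of the 25 with short exons 18 were higher (median 1.73). The summed level went from 1620 ± 392 to 6178 ± 713 in the first class (3.81 times) and from 2859 ± 956 to 14145 ± 3628 in the second (4.95 times). Both classes thus held genes that rose. By level, 19 of 23 genes with a mean of at least 50 normalized counts were higher, against 10 of the 17 tested genes below that. This mean covers the libraries of both groups, so a gene could pass 50 because it rose. H2BC9, for example, had a mean of 18.2 in Control and 83.0 in DZNep. The split therefore cannot show whether the call depends on the level in Control. By stem-loop form, 15 of 23 tested genes with the most frequent form were higher, and 4 of 7 with the most frequent H4 form.

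RNAs that normally lack a poly(A) tail were also higher in DZNep as a sum. Of 34 such RNAs listed, 7 were tested, with 4 higher and 1 lower and a median log2 fold change of 1.23. Of all genes tested, 10.6% were higher and 13.5% lower. The summed normalized count of the listed RNAs was 1207 to 1812 in Control and 2501 to 5279 in DZNep, and 9 were at 0 in every library. RN7SL2, an RNA of the signal recognition particle, made up 71.0 to 88.5% of this sum. It had 960, 1318, 1604 and 1196 normalized counts in the Control libraries and 2110, 4294, 1986 and 2503 in the DZNep libraries (log2 fold change 1.07). Control replicate 3 and DZNep replicate 2 were highest in RN7SL2, and replicate 4 of each group was highest in the histone share. The libraries are given here for RN7SL2 alone. RN7SL3, a copy of the signal recognition particle RNA, rose by 2.51 on the log2 scale, TERC, the telomerase RNA, by 3.40 on few Control reads, and SNORD3A, which guides the processing of ribosomal RNA, by 1.33, while the small nucleolar RNA SNORA73B fell by 2.20. The part of these RNAs' capture in the histone result was not tested.

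Among 44 factors of histone gene transcription and of histone mRNA 3′ end formation and decay, 2 were higher and 2 lower. Their median log2 fold change was -0.05. Of all genes tested, 10.6% were higher and 13.5% lower. By the adjusted p alone, 5 of these factors were higher and 8 lower, and the counts of all genes by this measure are given below. HINFP, the activator of H4 genes, rose from 622 ± 90.6 to 1347 ± 148 normalized counts (log2 fold change 1.09), and CDK9, the elongation kinase, rose by 1.37. CASP8AP2 (FLASH), a core part of histone locus bodies and of 3′ end cleavage, fell by 1.55, from 3428 ± 455 to 1194 ± 79.5, and E2F2 fell by 1.22. SLBP, which binds the stem-loop, had 3039 ± 238 and 3735 ± 509 (0.27, adjusted p = 0.160). NPAT had 1069 ± 437 and 1179 ± 320 (0.11, adjusted p = 0.787), and its log2 fold change was -0.05 without Control replicate 1 or 4 and -0.04 without DZNep replicate 2. Of 10 tested histone genes that are expressed outside S phase, H1-10 was higher (1.03), MACROH2A2 was lower (-1.26) and the median was 0.45.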

How the data were processed

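RNA was sequenced in 8 HEK293T libraries, 4 treated with 100 µM DZNep for 48 h and 4 with vehicle, grouped by the treatment and replicate number in the labels. Per the submitters' notes and methods, reads were trimmed with Trimmomatic 0.36, mapped to GRCh38 with STAR 2.5.2b and assigned to genes with featureCounts of Subread 1.5.2. The authors deposited raw counts for 57500 genes and a second table whose signal is normalized counts for 19118 genes. Each of its values, multiplied by 1 size factor per library, gave whole counts (100% within 0.01), so the normalized counts printed here are raw counts divided by these size factors for all genes.

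Tests used R 4.3.3, edgeR 4.0.16 (TMM, filterByExpr, quasi-likelihood test, treatment alone) on 19171 genes with Benjamini-Hochberg adjustment, and a call required both an adjusted p under 0.05 and a log2 fold change beyond 1 in either direction. DESeq2 1.42.0, other scalings, filters, thresholds and leaving out libraries were alternatives, and the edgeR code was tested on simulated data. Each standard error (SE) was derived from the test, as the absolute log2 fold change divided by the square root of its F statistic. Intervals and floors (3 reads) cover counting error only. The study calls the replicates biological. Deviations from the group mean of same-numbered libraries correlated at 0.136, 0.492, 0.429 and 0.673 over genes. Libraries of different numbers were not compared this way, so these values cannot show that the numbers pair the samples. By chi-square per degree of freedom, Control replicate 1 lay nearer DZNep replicate 4 (119) than DZNep replicate 1 (172). Control replicate 2 lay nearer DZNep replicate 3 (145) than DZNep replicate 2 (173). Control replicates 3 and 4 lay nearest the DZNep library of their own number. A fit with the replicate block was run as an alternative. No pair of libraries of a group agreed within sampling noise (chi-square per degree of freedom at least 23.9).

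Symbols, exons and coordinates came from GENCODE release 44 on GRCh38, which may differ from the annotation used for counting, and were matched for 56410 of 57500 identifiers. Counts of overlapping or antisense genes are uncertain, since strandedness is not given in the sources used here. The histone genes and all gene lists were chosen with earlier results of these data known. Values in every library are given for the 2 most abundant genes of each type, the 4 largest and 4 smallest log2 fold changes and the tested genes of chromosomes 1 and 12. The per-library values of H2BC7 and the read ratios of H2BC7 and H2BC8 were added after their values were seen. From the lists of histone mRNA factors and of histones expressed outside S phase the rule named up to 6 called genes, with SLBP and NPAT in any case, and from each other list up to 3. The further called genes of the RNAs without a poly(A) tail and of the histone chaperones, and the markers LYZ, COL1A2 and CD3E, were named after their values were seen. A gene of the kidney-line list and a gene of the list of histones expressed outside S phase are not reported here.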

Additional observations from a re-analysis of the deposited data

Results flagged for a closer look

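In 5 of 82 groups of 4 normalized counts of tested histone genes or of their share of the library, the highest or lowest library lay apart from the other libraries of its group by Dixon's test, and chance alone would mark about 1 group in 20. H2BC18 had 297 in DZNep replicate 2, beside 124 to 150 in the other DZNep libraries. H3C13 had 10.8 in Control replicate 1, beside 2.15 to 3.58, and 48.4 in DZNep replicate 3, beside 62.6 to 64.4. H4C4 had 17.2 in Control replicate 4, beside 7.71 to 8.06. H2BC9 had 29.5 in Control replicate 2, beside 12.9 to 15.4. These values came from 4 genes and 5 different libraries.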

How the results depend on the processing

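With at least 10 reads in every library, 18 histone genes were higher (26 tested), among them 3 H2A genes, 15 on chromosome 6 and 3 on chromosome 1. In all 1141 genes were higher there, and the number of all genes with this many reads is not given here. Against a log2 fold change of 1 (glmTreat) 21 of the 40 histone genes, among them 3 H2A and 3 H4 genes, and 942 higher and 1066 lower genes in all, passed, and with the adjusted p alone 3656 were higher and 4171 lower. The count of higher H1 genes was 2 with RLE size factors, with the replicate block and without both libraries of number 4 (added after seeing the data), 3 with library sizes alone and by DESeq2, and 4 with no filter on low counts. With no filter, 6 H3 genes were higher, and the median log2 fold change was 1.55, beside 1.56 by DESeq2, since more genes with few reads then entered it. The replicate block gave 30 higher histone genes and changed no call other than that of H1-4. Leaving out 1 library at a time gave 26 to 34 higher histone genes (H1 1 to 3, H2A 5 to 8, H2B 12 to 13, H3 3, H4 4 to 7, chromosome 6 20 to 28, chromosome 1 5 to 6, chromosome 12 0), 0 lower, a median of 1.78 to 2.07, a share ratio of 4.43 to 5.15, and 1936 to 2383 higher and 2322 to 2993 lower genes in all. The ratio of 5.15 was without Control replicate 4. The sign turned for H4C3 without DZNep replicate 4 (range -0.076 to 0.87 with 1 library left out), for H4C16 without Control replicate 1 (-0.16 to 0.029), for H3C12 without Control replicate 1 or 4 or DZNep replicate 2 (-0.40 to 0.28) or both libraries of number 4 (0.12), and for NPAT without Control replicate 1 or 4 or DZNep replicate 2 (-0.050 to 0.36). The cause was not tested. Of the 29 higher genes, 25 kept their call with each other scaling, filter or library left out, the replicate block and DESeq2 wherever they were tested, and H2AC20, H4C4, H4C5 and H2AC12 did not. With under 4 reads in most Control libraries, the size of the change in H2BC7 and H2BC8 is limited by depth.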

Other observations

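Genes that mark the cell cycle gave values of their own. Of all genes tested, 10.6% were higher and 13.5% lower. Of 46 genes of DNA replication and S phase, 0 were higher by edgeR's quasi-likelihood test and 2 were lower. Their median log2 fold change was -0.05. At an unadjusted p under 0.05, 5 were higher and 13 lower. By the adjusted p alone 5 were higher and 10 lower, beside 3656 higher and 4171 lower of all 19171 genes tested. POLA2, a subunit of DNA polymerase alpha, fell by 1.72 and ASF1B, a chaperone of H3 and H4, by 1.61. Of 24 genes of mitosis, 2 were higher, namely PLK1 (1.46) and KIF20A (1.11), and HMMR was lower (-1.27), with a median of 0.49. By the adjusted p alone 11 were higher and 1 lower. Of 12 CDK inhibitors and pocket proteins, CDKN2D was higher (1.40) and RB1 lower (-1.34). Of 25 histone chaperones, 0 were higher and 4 were lower, namely ATRX (-1.79), ASF1B, NAP1L1 (-1.15) and SUPT16H (-1.06). At an unadjusted p under 0.05, 2 of the chaperones were higher and 10 lower. DESeq2 was not summed over these lists.

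The spread between replicates of 1 group differed with the annotated exons. Tested histone genes with a mean of at least 50 normalized counts over the libraries of both groups were used. In Control the median coefficient of variation was 41.4% for the 11 genes whose exons end near the stem-loop. It was 22.6% for the 12 with longer exons. In DZNep it was 33.6% and 15.3%. H4C3, with short exons, had 63.9% in Control, and H2BC21, with longer exons, had 7.94%. These genes share libraries, and the difference was not tested.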
